A study of Mus musculus with 2 samples.

Results

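Genes of glycolysis, 10 in number, were described across the Sc-RNA-Seq classes of bone marrow cells (BMCs). The set was given as a list, not chosen from measured values: *Gpi1*, *Aldoa*, *Tpi1*, *Gapdh*, *Pgk1*, *Pgam1*, *Eno1*, *Pkm* and *Ldha*, which encode enzymes from glucose phosphate to lactate, and *Bpgm*, which encodes bisphosphoglycerate mutase. All 10 were listed in both count tables, among 7182 genes listed for WT and 6735 for Cko, of which 6001 were in both. The WT library came from 1 mouse homozygous for a floxed exon of *Mbtps1* (S1P f/f), and the Cko library from 1 mouse with the same floxed alleles and the *Osx-Cre* transgene (S1P f/f;Osx-Cre), both C57BL6/J at postnatal day 21. S1P, the protein of *Mbtps1*, is site-1 protease, and the transgene expresses a GFP and Cre fusion from the Osx (*Sp7*) promoter, which is best known from the bone-forming lineage. The WT mouse carried no Cre, so the transgene and the loss of S1P cannot be told apart. BMCs came from crushed and collagenase-treated bones of hindlimbs and forelimbs and went through red blood cell lysis, so that mature red cells were largely taken out before the libraries were made.

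Glycolysis splits glucose into pyruvate in the cytosol and yields ATP without oxygen. *Ldha* turns pyruvate into lactate and so keeps the route running. Mature red cells have no mitochondria and live on glycolysis, and neutrophils rely on it for most of their ATP. *Bpgm* works on a side branch that is known above all from red cells: it takes the product of *Gapdh*, before *Pgk1* can use it, and makes bisphosphoglycerate, which binds hemoglobin and eases the release of oxygen. *Minpp1*, a phosphatase outside the set, can break bisphosphoglycerate down.

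The WT library held 56382459 unique molecular identifiers (UMIs, 1 per captured RNA molecule) in 6287 cell barcodes and the Cko library 34447224 in 3670. At least 200 genes were required, which left 6271 WT and 3662 Cko cells with medians of 6977 and 7440 UMIs. The libraries shared 28 barcodes, and Scrublet marked 1.95% of WT and 1.04% of Cko barcodes as likely doublets (a droplet that holds several cells). Hemoglobin genes took 16.7% of the WT UMIs and 6.28% of the Cko UMIs. Levels are therefore given as UMIs per 1000000 UMIs outside the hemoglobin genes, written CPM here, with exact 95% Poisson intervals for a level. Ratios are log2 values with exact conditional intervals, shares of cells have exact binomial intervals, and all cover counting error only. With 1 library per genotype there was no replicate check and no test. *Mbtps1* was at 38.3 CPM in the WT and 33.2 CPM in the Cko over all cells, but a 3′ read lies outside the floxed exon and checks nothing about the deletion.

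Both libraries were clustered together without the 10 genes, and clusters were named from marker genes. There were 3594 WT and 577 Cko erythroid-like cells. Each erythroid marker listed in both libraries, 19 in all, was counted in them in the WT and in the Cko. They were divided into 4 stages by the percent of their UMIs from hemoglobin genes: under 2% (695 WT and 124 Cko cells), 2 to 20% (683 and 50), 20 to 50% (550 and 99) and over 50% (1666 and 304). Of the 4171 erythroid-like cells, 52, 94 and 247 lay within 10% of the limits of 2, 20 and 50%. The other classes were neutrophil-like (640 WT and 1183 Cko cells), granulocyte-monocyte progenitor-like (GMP-like, 599 and 486), monocyte-like (327 and 553), B cell-like (847 and 617), T/NK-like (21 and 63), macrophage-like (51 and 9) and stromal and endothelial-like (31 and 18). Cluster 9, of 161 WT and 156 Cko cells, had no name. Cluster 10 was named erythroid-like, but 31.3% of its 198 WT and 29 Cko cells were called doublets, and its 13 neutrophil markers summed to 116883 CPM in the WT and 126447 CPM in the Cko, against 2297 and 3494 CPM in erythroid-like cluster 0. Results for erythroid stages are given with and without it where it matters.

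The genes lie on 6 chromosomes of the mouse build GRCm38 (GENCODE annotation). *Bpgm* is at chr6:34476207-34505613 on the plus strand, *Gapdh* at chr6:125161715-125166467 and *Tpi1* at chr6:124810586-124814296, both on the minus strand. *Ldha* is at chr7:46841475-46855627 on the plus strand, *Gpi1* at chr7:34201330-34230336 and *Aldoa* at chr7:126795234-126800751, both on the minus strand. *Pgk1* is at chrX:106187100-106203699, *Pgam1* at chr19:41911923-41918660, *Eno1* at chr4:150236721-150248879 and *Pkm* at chr9:59656368-59679375, all on the plus strand. By name the annotation holds 4 near copies of *Aldoa*, 6 of *Tpi1*, 3 of *Gapdh*, 4 of *Pgk1*, 3 of *Pgam1*, 1 of *Eno1* and 2 of *Ldha*, none of them listed in the tables, and *Aldoa* itself is annotated as a pair of adjacent genes of one symbol. Where reads were shared with these copies the levels are uncertain. The 3′ counts do not tell the M1 and M2 isoforms of *Pkm* apart.

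The promoters of 3 genes are shown because their genes had the patterns that the results turn on: *Bpgm* was highest in late erythroid cells, *Ldha* had the largest late-to-early difference downward, and *Gapdh* was higher in the Cko in all 5 of the larger classes. They are the bases before the start of the gene in RefSeq (GRCm38.p6), 5′ to 3′ on the strand of the gene, at chr6:34476106-34476206 for *Bpgm* (101 bases outside annotated exons), chr7:46845554-46845803 for the first of 2 starts of *Ldha* and chr6:125165774-125166023 for *Gapdh*. Capitals mark the letters ACGTG or CACGT (the core of the hypoxia response element, which overlaps itself in CACGTG), the letters GATAA or TTATC (known from GATA factors) and the letters CACCC or GGGTG (the CACCC box), searched on both strands.
Bpgm: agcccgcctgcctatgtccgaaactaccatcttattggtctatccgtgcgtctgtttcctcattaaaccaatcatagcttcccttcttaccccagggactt
Ldha: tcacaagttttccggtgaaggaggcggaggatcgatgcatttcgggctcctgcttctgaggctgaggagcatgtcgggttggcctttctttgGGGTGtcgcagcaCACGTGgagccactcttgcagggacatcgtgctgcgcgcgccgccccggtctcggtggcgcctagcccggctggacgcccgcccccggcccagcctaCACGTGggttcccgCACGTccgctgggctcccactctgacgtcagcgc
Gapdh: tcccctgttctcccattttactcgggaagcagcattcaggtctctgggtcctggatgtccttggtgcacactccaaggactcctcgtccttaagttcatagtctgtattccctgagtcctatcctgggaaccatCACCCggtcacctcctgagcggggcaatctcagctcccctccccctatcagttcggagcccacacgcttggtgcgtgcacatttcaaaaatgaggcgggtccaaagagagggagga
The *Ldha* window held 5 matches to the hypoxia core, counting both strands, and the windows of *Gapdh* and *Bpgm* held none. In the windows of 250 bases before each start, 5 of the 10 genes had the hypoxia core (*Aldoa*, *Pgk1*, *Pgam1*, *Pkm* and *Ldha*), against 18.5% of 27025 genes. GATAA was found for 2 of 10 (*Aldoa* and *Pkm*) against 25.5%, and CACCC for 7 of 10 against 54.5%. The 250 bases before *Bpgm*, of which 101 are printed, held none of these letters, which says only that they are not in this window.

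*Bpgm* had by far the widest range of the set across erythroid stages. In the WT it was at 22.9 CPM (20.3 to 25.7) in cells under 2% hemoglobin, 51.8 CPM at 2 to 20%, 114 CPM at 20 to 50% and 2097 CPM (2044 to 2152) over 50%. In the Cko it was at 16.0 CPM (11.7 to 21.3), 40.3, 49.99 and 1858 CPM (1758 to 1961) in the same stages. Each library thus had its lowest level before hemoglobin and most of its *Bpgm* after hemoglobin had become the larger part of the UMIs. The level over 50% was 91.6-fold that under 2% in the WT (log2 6.52, 6.34 to 6.70) and 116-fold in the Cko (log2 6.86, 6.43 to 7.32). Those values rested on 5882 UMIs over 277 in the WT and 1300 over 46 in the Cko.

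The stages share 1 measure, hemoglobin, whose UMIs are left out of the denominator, so the clusters give another view of the same cells. Cluster 6 held 632 of the 695 WT cells and 108 of the 124 Cko cells under 2%, cluster 0 most of the cells from 2 to 50%, and clusters 4 and 7 most of those over 50%. In the WT, *Bpgm* was at 29.2 CPM in cluster 6, 64.5 in cluster 0, 536 in cluster 4 and 9248 CPM in cluster 7, and in the Cko at 15.1, 44.9, 222 and 5023 CPM. The difference was therefore concentrated in cluster 7, in which *Bpgm* was 17.2-fold its WT level in cluster 4 and 22.6-fold its Cko level. Cycling genes, 15 summed, were at 29925 CPM (WT) and 23795 CPM (Cko) in cluster 4 but at 5684 and 2012 CPM in cluster 7. Whole RNA content moved with these steps. The median UMIs outside hemoglobin were 17742 and 23586 in cluster 6 and 824 and 1263 in cluster 7, so CPM overstates the change in molecules per cell. Even so, a cell held on average 0.524 *Bpgm* UMIs in WT cluster 6 and 8.08 in WT cluster 7, and 0.365 and 6.94 in the Cko.

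The share of cells with a *Bpgm* UMI gave the same order at 1 depth. After each cell was thinned to 500 UMIs outside hemoglobin, 1.44% of WT cells under 2% had a *Bpgm* UMI, 2.34% at 2 to 20%, 5.27% at 20 to 50% and 44.1% (41.6 to 46.5) over 50%. In the Cko these were 0 of 124 cells (up to 2.93% by the exact interval), 0 of 50, 1.01% and 50.3% (44.5 to 56.1). In cluster 7 the share was 90.8% in the WT and 82.5% in the Cko, against 0.938 and 0.423% of neutrophil-like cells, a class outside the erythroid lineage in which the source of the few *Bpgm* UMIs was not tested. Thinning left out 32 WT and 2 Cko cells over 50%, and without thinning cluster 7 stood at 97.2 and 97.0%. The shares under 2% hemoglobin were thus close to those of neutrophil-like cells. The last stage stood well clear of them in both libraries, and the stage of 20 to 50% in the WT alone.

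Over the hemoglobin stages the other 9 genes, as a sum, ran the opposite way. In the WT their sum was at 1902 CPM under 2% hemoglobin, 1322 at 2 to 20%, 801 at 20 to 50% and 374 CPM (352 to 398) over 50%. In the Cko it was at 2736, 1538, 824 and 422 CPM (375 to 472). The sum over 50% was 5.08-fold lower than that under 2% in the WT (log2 -2.35, -2.44 to -2.26) and 6.49-fold lower in the Cko (log2 -2.70, -2.87 to -2.53). Counted per cell, the 9 genes gave 33.1 UMIs under 2% and 0.630 over 50% in the WT, and 63.4 and 0.970 in the Cko. Without cluster 10 the log2 values were -2.57 and -3.06. By cluster the sum was at 1868, 993, 257 and 503 CPM in WT clusters 6, 0, 4 and 7. The Cko values were 2702, 920, 309 and 379 CPM, the last pair from 103 and 88 UMIs. *Bpgm* and the sum were thus both higher in cluster 7 than in cluster 4.

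**Figure D1:**
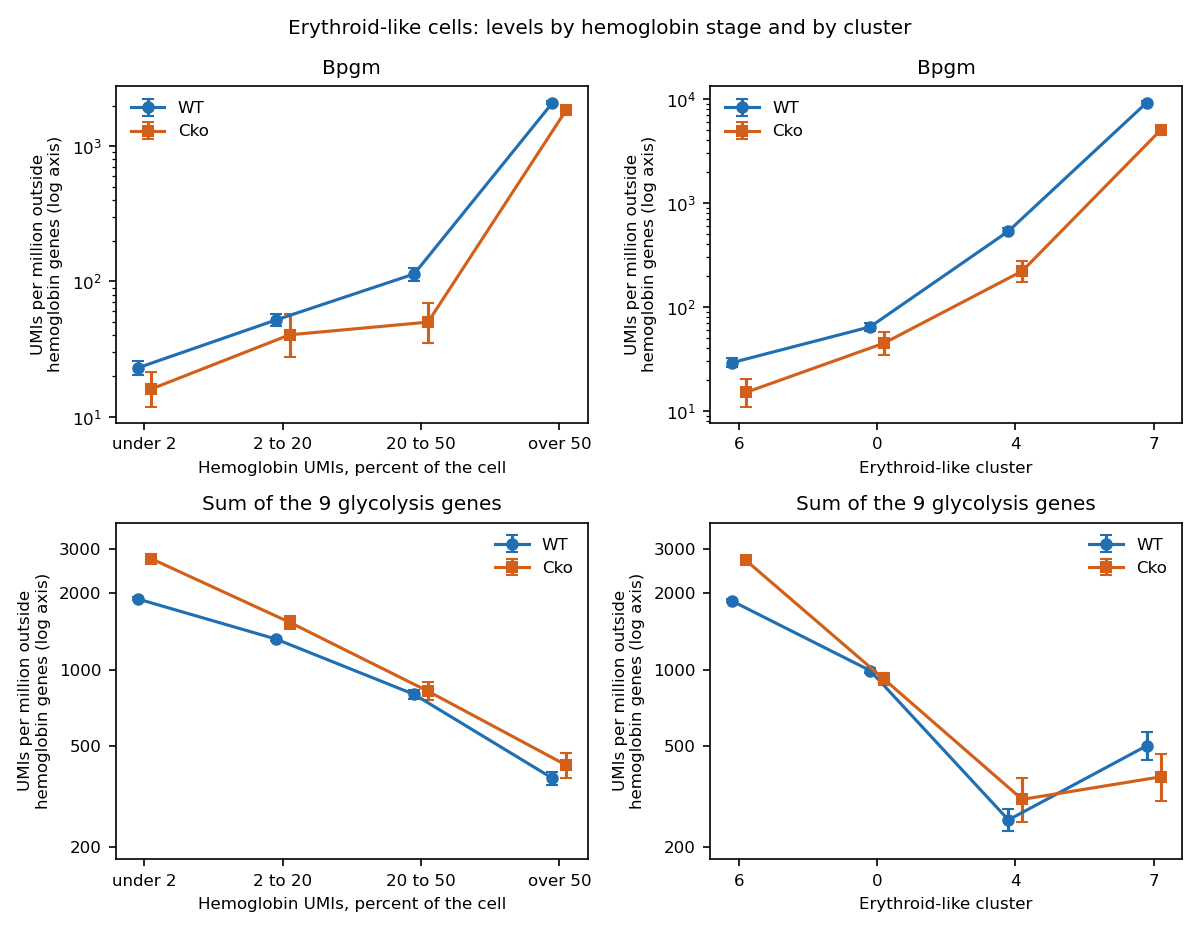
Levels of Bpgm (top) and of the sum of the 9 glycolysis genes (bottom) in erythroid-like cells, by percent of hemoglobin UMIs (left) and by cluster (right), in CPM outside hemoglobin genes on log axes, with WT as circles, Cko as squares and exact 95% Poisson intervals as bars. Bpgm goes from 22.9 to 2097 CPM in the WT and from 16.0 to 1858 CPM in the Cko over the stages, while the sum goes from 1902 to 374 and from 2736 to 422 CPM.

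Gene by gene, 7 of the 10 were lower by at least 1.5-fold over 50% hemoglobin than under 2% in the WT, against 49.7% of 5668 genes with at least 100 UMIs in the 2 stages. *Pkm* and *Bpgm* were higher by that measure, against 26.5% of the same genes. In the Cko 7 of the 9 with enough UMIs were lower, against 46.8% of 3622 genes, and 1, *Bpgm*, was higher, against 30.1%. The median log2 ratio of the members was -1.63 in the WT and -2.22 in the Cko, beside -0.57 and -0.41 over all these genes.

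In the upper part of the route, *Gpi1*, which turns glucose phosphate into fructose phosphate, was at 84.9 CPM under 2%, 53.2, 46.1 and 31.4 CPM over 50% in the WT and at 154, 53.3, 44.3 and 41.4 CPM in the Cko. *Aldoa*, which splits the sugar, was at 192, 95.6, 54.4 and 40.3 CPM in the WT and at 257, 83.2, 51.4 and 54.3 CPM in the Cko. *Tpi1*, which interconverts the resulting triose phosphates, was at 240, 126, 46.1 and 29.6 CPM in the WT and at 240, 117, 52.8 and 27.2 CPM in the Cko. All 3 were thus already lower by more than 1.5-fold at 2 to 20% hemoglobin in both libraries. These levels include cluster 10, in which *Gpi1* was at 176 CPM (WT) and 289 CPM (Cko). Without it *Gpi1* at 2 to 20% was at 46.5 and 37.9 CPM. The log2 ratios of the last to the first stage were -1.44 for *Gpi1*, -2.25 for *Aldoa* and -3.02 for *Tpi1* in the WT, and -1.90, -2.24 and -3.14 in the Cko.

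*Gapdh*, which oxidises the triose phosphate and feeds both *Pgk1* and *Bpgm*, held out longer. It was at 754 CPM under 2% and 732 CPM at 2 to 20% in the WT, a log2 ratio of -0.04 (-0.09 to 0.01), while *Ldha* at that step stood at -1.22 (-1.30 to -1.14). It then was at 483 CPM at 20 to 50% and 131 CPM over 50%. In the Cko it was at 1240, 913, 493 and 153 CPM, with a log2 ratio of -0.44 (-0.56 to -0.32) at the first step. Clusters 6, 0 and 4 gave the same order. *Gapdh* was at 754 CPM in WT cluster 6, 623 in cluster 0 and 88.7 in cluster 4, a 7.02-fold lower level between the last pair. In the Cko it was at 1245, 615 and 129 CPM. In cluster 7 it was at 118 CPM from 59 UMIs in the WT, above cluster 4, and at 116 CPM from 27 UMIs in the Cko.

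In the lower part of the route, *Pgk1*, which makes ATP, had few UMIs, 120 under 2% and 9 over 50% in the WT, and 37 and 3 in the Cko. Its log2 ratio was -1.63 (-2.79 to -0.65) in the WT and -1.59 (-3.93 to 0.07) in the Cko, where the interval includes 0. *Pgam1*, which moves the phosphate group along the molecule, was at 38.3, 19.4, 25.2 and 27.5 CPM in the WT and at 71.3, 32.5, 25.7 and 38.6 CPM in the Cko, so that most of its difference lay at the first step. These levels include cluster 10, in which *Pgam1* was at 137 CPM (WT) and 187 CPM (Cko). In clusters 6, 0, 4 and 7 it was at 31.8, 11.9, 19.2 and 43.9 CPM in the WT, the last from 22 UMIs. The Cko values were 62.1, 18.1, 39.0 and 21.5 CPM, the last from 5 UMIs. *Eno1*, which removes water to give phosphoenolpyruvate, was at 80.0, 57.1, 30.3 and 24.3 CPM in the WT and at 119, 81.9, 38.6 and 24.3 CPM in the Cko. *Ldha* was the gene with the steepest difference in each library. It was at 479, 206, 57.3 and 45.6 CPM in the WT and at 605, 203, 58.6 and 35.7 CPM in the Cko, 10.5-fold lower in the last stage than in the first in the WT (log2 -3.39, -3.66 to -3.14) and 16.9-fold lower in the Cko (log2 -4.08, -4.71 to -3.52).

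*Pkm*, which makes pyruvate and ATP, was the exception among the 9. It was at 24.4, 24.3, 51.9 and 41.7 CPM in the WT and at 36.5, 42.9, 58.6 and 42.9 CPM in the Cko, a log2 ratio of 0.78 (0.45 to 1.09) and 0.23 (-0.41 to 0.83) between the ends. Neutrophil markers moved with it: their sum in the WT was 6080, 8568, 29004 and 11517 CPM over the 4 stages, and *Pkm* was at 686 CPM in neutrophil-like cells. Without cluster 10 *Pkm* was at 17.4, 9.98, 13.04 and 28.6 CPM in the WT, so that the middle stages were then below the first, and the log2 ratio between the ends was 0.71 (0.31 to 1.10), with 0.60 (-0.16 to 1.31) in the Cko. In cluster 7 it was at 61.8 CPM from 31 UMIs in the WT and at 51.7 CPM from 12 UMIs in the Cko, where all 13 neutrophil markers summed to 10553 and 12520 CPM. The part of RNA from neutrophils in these few UMIs was not tested.

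**Figure D2:**
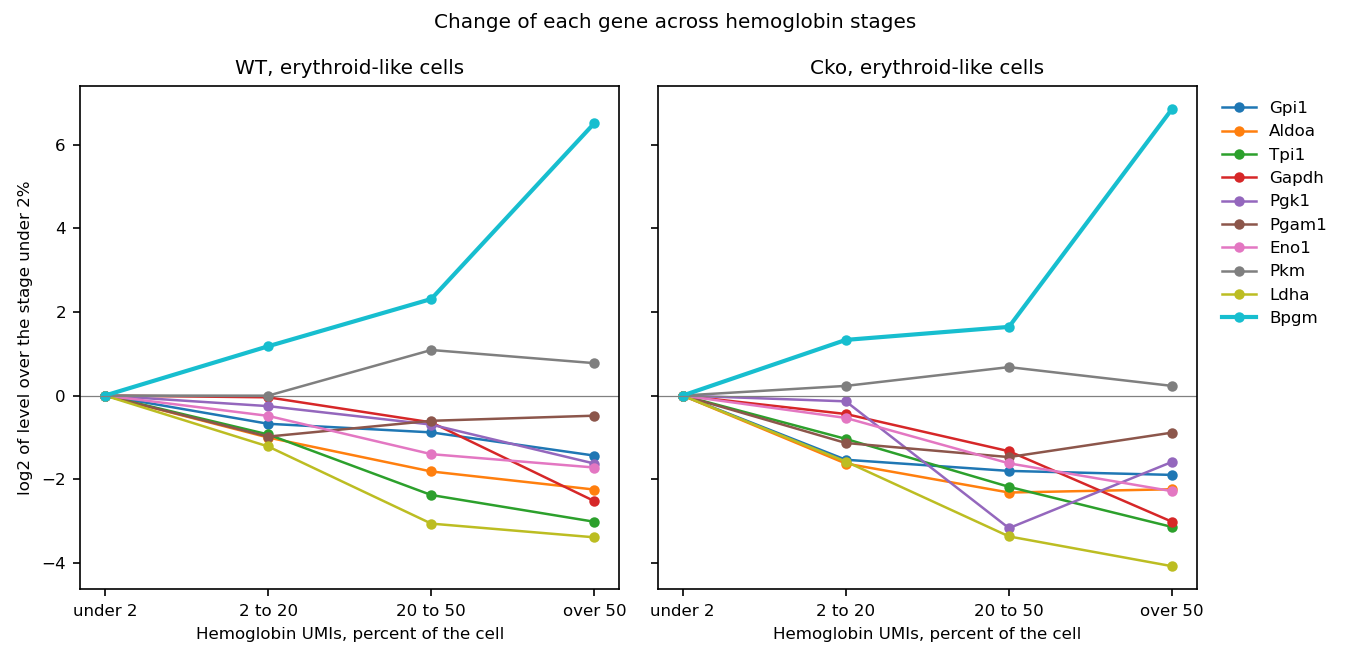
Log2 ratio of the level of each gene to its level in erythroid-like cells under 2% hemoglobin, by percent of hemoglobin UMIs, for the WT (left) and the Cko (right), 1 line per gene. Bpgm reaches 6.52 and 6.86, Pkm 0.78 and 0.23, and Ldha is lowest at -3.39 and -4.08, while the dip of Pgk1 in the Cko at 20 to 50% rests on 1 UMI.

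Other genes of the pathway gave a wider view. A list of 30 hexokinases, phosphofructokinases, isozymes, transporters and neighbouring enzymes had 17 genes listed in both libraries. In the WT 11 of them had at least 100 UMIs in the 2 end stages, and 8 were lower over 50% by at least 1.5-fold and 1 was higher, against 49.7% and 26.5% of all genes. In the Cko 2 of 6 were lower, against 46.8%, and 1 was higher, against 30.1%. *Slc16a1*, which carries lactate and pyruvate through the membrane, was the higher one: it was at 54.9 CPM under 2% and 320.6 CPM over 50% in the WT (log2 2.55) and at 33.1 and 174 CPM in the Cko (log2 2.40). *Hk1*, the hexokinase of red cells, was at 106 and 115 CPM in the WT and 116 and 91.5 CPM in the Cko. *Minpp1* was at 327 and 63.1 CPM in the WT (log2 -2.37) and at 268 and 31.4 CPM in the Cko (log2 -3.09). The phosphofructokinase genes *Pfkm* (36.3 and 4.64 CPM) and *Pfkl* (30.9 and 8.56 CPM) were lower in the late WT cells, as were *Pdha1* (73.3 and 8.91 CPM), a subunit of the enzyme that sends pyruvate into mitochondria, and *Pdk1* (40.0 and 4.64 CPM), the kinase that inhibits it. *Hk1*, *Slc16a1* and *G6pdx* (log2 -0.44 from 522 UMIs) thus did not share the late level, lower by at least 1.5-fold, of most of the genes counted in the WT. *Pgd* was lower late in the WT (log2 -1.04 from 601 UMIs) but not by 1.5-fold in the Cko (-0.22 from 104). *G6pdx* was near level in the Cko (-0.09 from 102). Genes counted in the WT but left out of the Cko count, with fewer than 100 UMIs, were also lower late in the Cko. They were *Pdk1* (log2 -4.56 from 98 UMIs), *Pfkm* (-2.98 from 67), *Pfkl* (-2.49 from 72) and *Slc2a3* (-0.59 from 43). The last was *Eno3*, with 18 Cko UMIs under 2% and 0 over 50%.

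Over the 26 levels of classes and stages in both libraries, the genes most like *Bpgm* among 5600 were *Ube2o* (Pearson r = 0.963), *Tmcc2* (0.959), *Slfn14* (0.955), *Eif5* (0.954) and *Fam220a* (0.949), on log2(CPM + 10). *Tmcc2* was at 9.17, 27.5, 96.9 and 1485 CPM over the WT stages and *Ube2o*, a ubiquitin-conjugating enzyme of late erythroid cells, at 13.1, 21.8, 65.9 and 353 CPM. The 9 glycolysis genes had negative correlations with *Bpgm*, from -0.49 for *Pgk1* to -0.82 for *Gapdh*. Among themselves the closest were *Pgam1* with *Eno1* (0.943), *Tpi1* with *Ldha* (0.935) and *Pgam1* with *Pkm* (0.932). These values describe 26 points that share libraries and depth, and erythroid stages make up 8 of them.

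Outside the erythroid-like cells the sum of the 9 genes was highest in GMP-like cells in both libraries. It was at 4537 CPM in these cells in the WT and at 5132 CPM in the Cko, at 4039 and 4073 CPM in monocyte-like cells and at 3398 and 3826 CPM in neutrophil-like cells. B cell-like cells were at 2613 and 2871 CPM, cluster 9 at 2903 and 3041 CPM, T/NK-like cells at 3970 and 2721 CPM, stromal and endothelial-like cells at 1586 and 2293 CPM and macrophage-like cells at 1369 and 1711 CPM. The last 3 classes held from 9 to 63 cells, and the T/NK-like values of the 2 libraries lay farther apart than those of the larger classes. The erythroid-like cells over 50% hemoglobin, at 374 and 422 CPM, were below all these classes in both libraries.

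The myeloid progenitors differed from the early erythroid-like cells most in *Pkm* and *Pgam1*. GMP-like cells held 26.1-fold the *Pkm* level of erythroid-like cells under 2% hemoglobin in the WT (636 against 24.4 CPM, log2 4.70) and 16.7-fold in the Cko (log2 4.06). *Pgam1* was 13.7-fold higher in the WT (525 against 38.3 CPM, log2 3.78) and 7.37-fold in the Cko, *Gpi1* 5.01-fold and 2.98-fold, and *Eno1* 4.74-fold and 3.47-fold. *Aldoa* stood at 2.80-fold and 1.94-fold. *Tpi1*, *Gapdh* and *Ldha* differed less: their log2 ratios were 0.52, 0.46 and 0.38 in the WT and 0.50, 0.39 and 0.08 (0.00 to 0.15) in the Cko. *Bpgm* was at 20.9 and 15.2 CPM in GMP-like cells, a log2 ratio of -0.13 (-0.42 to 0.16) and -0.08 (-0.58 to 0.45) to the early erythroid-like cells. *Pkm* and *Pgam1* thus differed far more between GMP-like and early erythroid-like cells than *Tpi1*, *Gapdh* and *Ldha*. Within the erythroid-like cells under 2% these low values held without cluster 10, with *Pkm* at 17.4 and 23.0 CPM and *Pgam1* at 33.0 and 62.1 CPM.

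**Figure D3:**
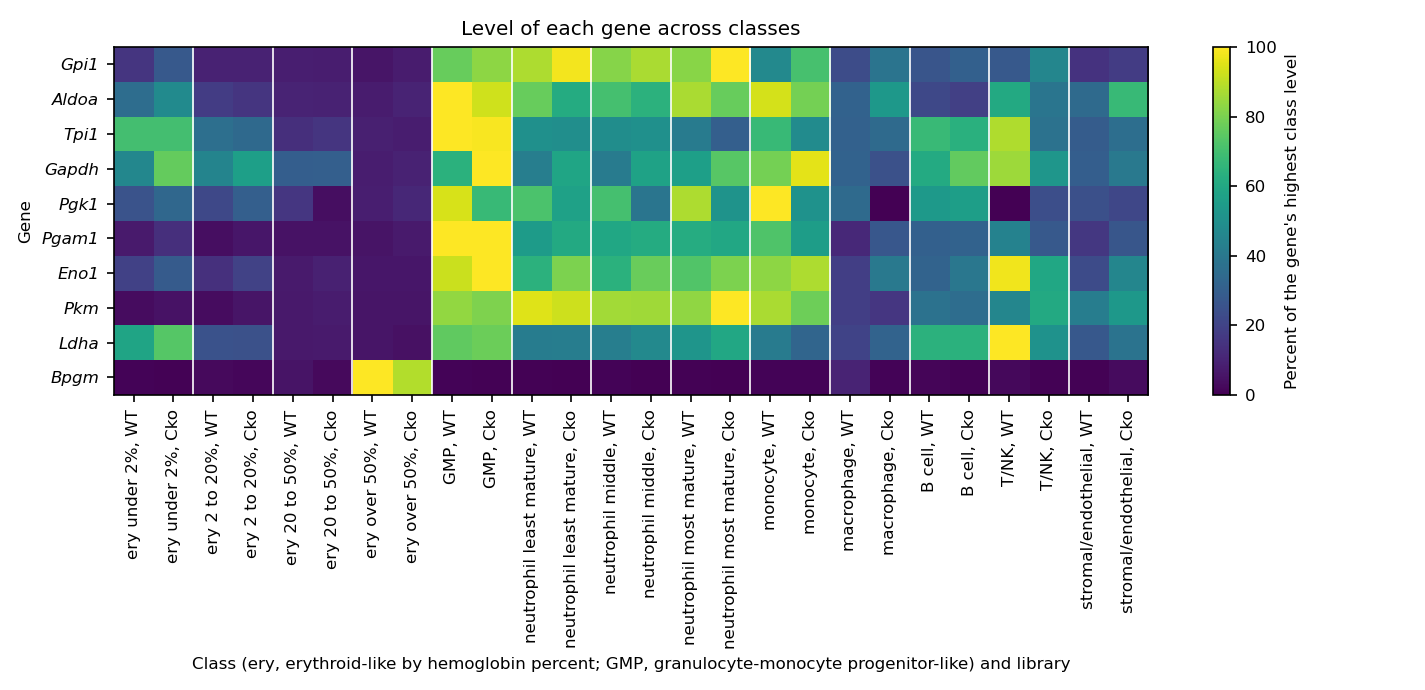
Level of each gene (rows) in each class and library (columns) as percent of the highest class level of that gene, on a color scale from 0 to 100. Bpgm is bright only over 50% hemoglobin, at 2097 and 1858 CPM, and Pkm and Pgam1 are dark in all erythroid stages and bright in the progenitor-like and neutrophil-like cells, where WT Pkm is at 636 and 686 CPM.

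Neutrophil-like cells had a lower sum than GMP-like cells, with a log2 ratio of -0.42 in each library (-0.45 to -0.39 in the WT and -0.44 to -0.40 in the Cko). The genes did not move together. *Tpi1* was 2.05-fold lower in the WT (167 against 343 CPM) and 2.25-fold lower in the Cko (151 against 340.1 CPM), and *Pgam1* and *Ldha* were at -0.80 each in the WT and at -0.72 and -0.66 in the Cko. *Gapdh* was at -0.54 and -0.67. *Gpi1* and *Pkm* were instead slightly higher in neutrophil-like cells, at 0.14 and 0.11 in the WT and 0.20 for both in the Cko.

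Neutrophil-like cells were divided into 3 bins by the log2 ratio of 6 genes of mature to 6 genes of immature neutrophils, at -9.26 and -7.72, with 251 and 94 of 1823 cells within 0.25 of these limits. The sum of the 9 genes was at 3406, 3281 and 3705 CPM from the least to the most mature WT bin and at 3717, 3628 and 4190 CPM in the Cko. The most mature bin over the least mature gave a log2 ratio of 0.12 (0.05 to 0.19) in the WT and 0.17 (0.13 to 0.21) in the Cko, a small step beside that over the erythroid stages, and -0.20 in the WT when each library was clustered on its own. No member differed by 1.5-fold among the 8 with enough UMIs in the WT, against 33.8% of 1919 genes in either direction, and 1 of 9, *Tpi1*, did in the Cko, against 45.2% of 3104 genes. *Tpi1* was at 172, 169 and 143 CPM in the WT and at 170, 172 and 104 CPM in the Cko (log2 -0.27, -0.65 to 0.10, and -0.70, -0.92 to -0.49). *Gapdh* was at 692, 674 and 917 CPM in the WT (log2 0.41) and at 952, 938 and 1203 CPM in the Cko (log2 0.34), and *Ldha* at 344, 350 and 428 CPM (log2 0.32) and 349, 386 and 493 CPM (log2 0.50). *Pkm* had opposite signs in the libraries, -0.19 (-0.36 to -0.01) and 0.12 (0.03 to 0.21). The clusters of the class were cluster 2, led by *Chil3* and *Ngp*, and cluster 8, led by *Mmp8* and *Retnlg*. *Pkm* was at 686 and 684 CPM in them in the WT, nearly level, and at 677 and 749 CPM in the Cko. The median UMIs outside hemoglobin per cell were 7188, 5493 and 3742 in the WT bins and 9118, 7076 and 4379 in the Cko bins. Depth is part of the ratio itself, which has 1 added to each sum. A cell with no UMI of the mature genes scores as more mature the fewer UMIs it has of the immature genes. The bins thus mix maturity with depth. Cycling genes were at 1669 CPM in the most mature WT bin and at 366 CPM in WT cluster 8. The part of depth was not tested. The most mature WT bin held 110 cells.

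**Figure D4:**
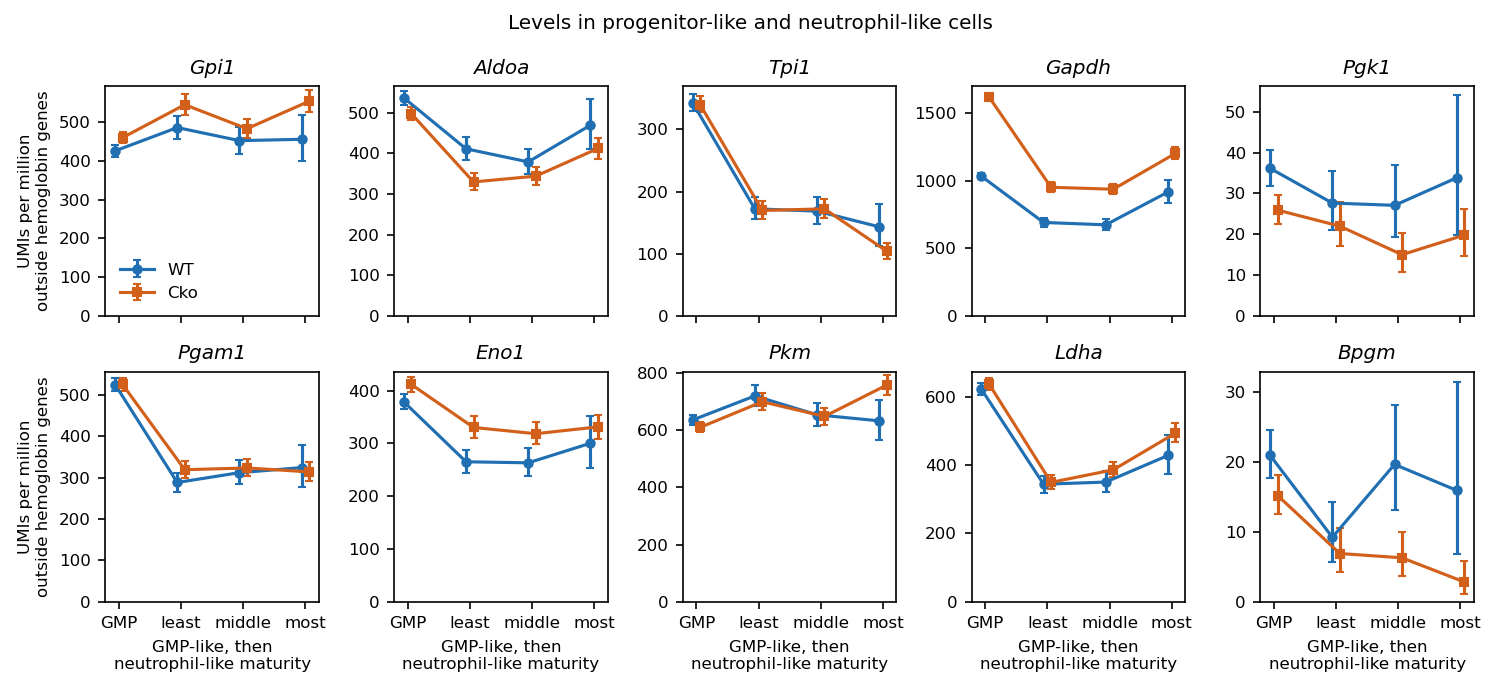
Levels of the 10 genes in GMP-like cells and in the least mature, middle and most mature bins of neutrophil-like cells, in CPM outside hemoglobin genes, with axes from 0, WT as circles, Cko as squares and exact 95% Poisson intervals as bars. Tpi1 goes from 343 to 143 CPM in the WT and from 340.1 to 104 CPM in the Cko, and the Cko points of Gapdh lie above the WT points at each of the 4 positions.

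Monocyte-like cells differed from GMP-like cells by -0.17 (WT) and -0.33 (Cko) in the log2 sum. *Ldha* was lower, at 340.2 and 268 CPM against 622 and 638 CPM, while *Pkm* was at 662 and 592 CPM against 636 and 610 CPM. Among lymphoid cells the balance was different. B cell-like cells held less *Aldoa* (117 and 102 CPM), *Gpi1* (147 and 170.5 CPM) and *Pkm* (284 and 271 CPM) than neutrophil-like cells, which were 3.47-fold and 3.51-fold higher in *Aldoa*, 3.20-fold and 3.09-fold in *Gpi1* and 2.41-fold and 2.58-fold in *Pkm*. *Ldha* and *Tpi1* were instead higher in B cell-like cells, with neutrophil-to-B ratios of -0.56 and -0.48 in the WT and -0.37 and -0.53 in the Cko (log2).

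The B cell-like clusters differed among themselves in the same genes. Cluster 1 was led by *Igll1* and *Vpreb1*, genes of the surrogate light chain of B cell precursors, and cluster 11 by *Igkc* and *Ms4a1*, genes of later B cells. Over cluster 1, cluster 11 had more *Aldoa* (WT log2 1.25, Cko 1.47) and *Gpi1* (1.07 and 0.92) and less *Ldha* (-0.90 and -0.83) and *Tpi1* (-0.66 and -1.04). The sum of the 9 was nearly level, at -0.06 (-0.15 to 0.03) and -0.10 (-0.18 to -0.01). Cluster 11 was small, with 71 WT and 74 Cko cells, and it held 4 leading markers of other cell types among its top 10 genes.

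*Bpgm* outside the erythroid-like cells was low in every class with more than 100 cells in both libraries. In the WT the order was B cell-like (30.3 CPM, 26.0 to 35.1), GMP-like (20.9, 17.7 to 24.5), monocyte-like (19.98, 14.3 to 27.1) and neutrophil-like (13.7, 10.4 to 17.8), in which the intervals of neighbours other than the B cell-like and GMP-like cells overlap. In the Cko it was monocyte-like (17.4, 13.5 to 22.2), B cell-like (15.5, 12.3 to 19.2), GMP-like (15.2, 12.6 to 18.2) and neutrophil-like (5.48, 4.01 to 7.31), and there the last interval overlaps no other. The WT macrophage-like cells stood out at 213 CPM from 64 UMIs, against 23.8 CPM from 1 UMI in the Cko. Their median hemoglobin share was 13.6% (WT) and 0.185% (Cko), and the 19 erythroid markers summed to 282378 and 106702 CPM in them. In stromal and endothelial-like cells *Bpgm* had 3 and 7 UMIs, and in T/NK-like cells 6 and 3.

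The hemoglobin share of cells outside the erythroid-like clusters differed between the libraries, and *Bpgm* can be set against it. In B cell-like cells the median hemoglobin share was 0.310% (WT) and 0.0800% (Cko), and in neutrophil-like cells 0.325 and 0.0907%. Per 1000 hemoglobin UMIs there were 2.39 (WT) and 9.78 (Cko) *Bpgm* UMIs in B cell-like cells and 2.11 and 5.36 in neutrophil-like cells, against 0.859 and 0.791 in erythroid-like cells over 50% hemoglobin and 1.85 and 1.28 in cluster 7. The *Bpgm* counts of the B cell-like and neutrophil-like cells were thus higher, relative to hemoglobin, than in the late erythroid-like cells of the same library. Not every class was like this. GMP-like cells were at 2.18 (WT) and 2.91 (Cko), monocyte-like at 1.25 and 4.54 and stromal and endothelial-like at 1.51 and 1.84. Macrophage-like cells were at 0.776 and 0.231 and T/NK-like cells at 0.486 and 8.85. The source of these UMIs was not tested.

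Between the genotypes, the question was whether S1P ablation in the Osx lineage went with another glycolysis level in marrow cells. In erythroid-like cells 2 of the 10 genes, *Gpi1* and *Pgam1*, were higher in the Cko by at least 1.5-fold and none lower, against 12.9% of 5245 genes in either direction. The median log2 Cko/WT ratio of the members was 0.46, beside -0.05 over all these genes. *Gpi1* was at 65.0 CPM in the WT and 108 CPM in the Cko (log2 0.73, 0.59 to 0.87), *Pgam1* at 29.9 and 54.5 CPM (0.87, 0.66 to 1.07), *Gapdh* at 650 and 936 CPM (0.53, 0.48 to 0.57) and *Tpi1* at 161 and 166 CPM (0.05, -0.06 to 0.15). The sum of the 9 was at 1436 and 1967 CPM (0.45, 0.42 to 0.49). When each library was clustered on its own, 6 of the 10 genes passed 1.5-fold, against 21.4% of 5263 genes.

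That difference was not even over the stages. The sum gave 0.52 (0.49 to 0.56) under 2% hemoglobin, 0.22 (0.13 to 0.31) at 2 to 20%, 0.04 (-0.09 to 0.17) at 20 to 50% and 0.17 (-0.02 to 0.36) over 50%, and weighting the 4 stages equally gave 0.24. By cluster it was 0.53 in cluster 6, -0.11 (-0.20 to -0.03) in cluster 0, 0.27 (-0.06 to 0.58) in cluster 4 and -0.41 (-0.77 to -0.05) in cluster 7. *Gpi1* had opposite signs in clusters 6 and 0: it was at 80.3 CPM in the WT and 148 CPM in the Cko in cluster 6 (0.89, 0.72 to 1.05) but at 36.3 and 17.4 CPM in cluster 0 (-1.06, -1.72 to -0.46), from 333 and 24 UMIs. *Ldha* was at 0.35 (0.27 to 0.43) in cluster 6, at -2.51 (-5.59 to -0.58) in cluster 4 from 55 and 2 UMIs, and at -1.28 (-2.58 to -0.17) in cluster 7 from 42 and 8 UMIs. Among the stages, the Cko sum was thus highest relative to the WT under 2% hemoglobin. Cells were deeper in the Cko in every stage. The median UMIs outside hemoglobin were 22373 (Cko) against 17453 (WT) under 2% and 14630 against 10924 at 2 to 20%. They were 6538 against 4688.5 at 20 to 50% and 1884.5 against 1633 over 50%. The part of depth was not tested.

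*Bpgm* gave different ratios over all erythroid-like cells and within their stages. Over all erythroid-like cells it was at 269 CPM in the WT and 280.0 CPM in the Cko (0.06, -0.02 to 0.14). Within each stage the Cko value was lower, at -0.52 (-0.999 to -0.06), -0.36 (-0.94 to 0.16), -1.18 (-1.73 to -0.68) and -0.18 (-0.26 to -0.09). It was also lower in each erythroid-like cluster, at -0.45 in cluster 10, -0.95 in cluster 6, -0.52 in cluster 0, -1.27 (-1.63 to -0.93) in cluster 4 and -0.88 (-0.97 to -0.79) in cluster 7. Cluster 7, where *Bpgm* is highest, made up 574 of the 3594 WT and 168 of the 577 Cko erythroid-like cells, and 573 of the 1666 WT and 168 of the 304 Cko cells over 50%. With the 4 stages weighted equally the log2 ratio was -0.56. With at least 500 genes per cell, a limit that left out 487 WT and 80 Cko cells, it was 0.51 (0.40 to 0.63), and the WT log2 ratio of the last to the first stage was 5.01. Per cell rather than as CPM, cluster 7 held 8.08 *Bpgm* UMIs in the WT and 6.94 in the Cko.

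**Figure D5:**
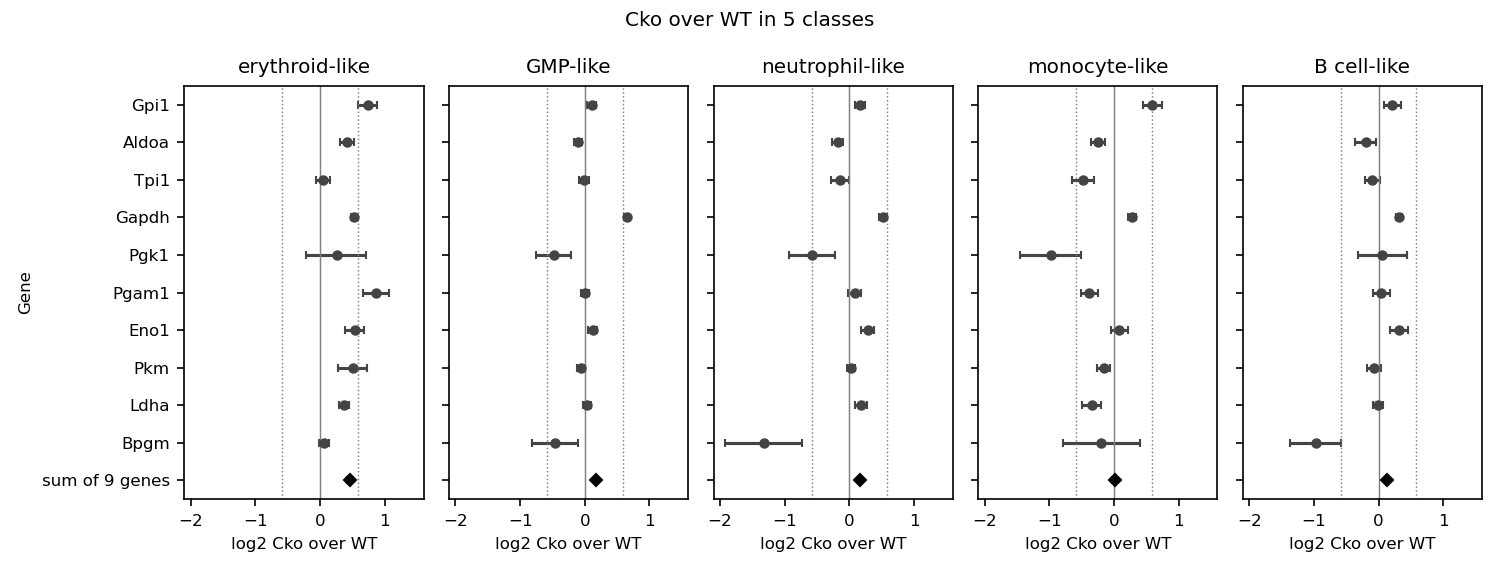
Log2 ratio of Cko to WT for each gene (circles) and for the sum of the 9 glycolysis genes (diamonds) in the 5 larger classes, with exact 95% conditional intervals that cover counting error only, a solid line at 0 and dotted lines at 1.5-fold in each direction. Gapdh lies to the right of 0 in all 5 panels, from 0.28 in monocyte-like to 0.65 in GMP-like cells, and Bpgm lies at -1.33 in neutrophil-like and -0.97 in B cell-like cells.

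In neutrophil-like cells 1 of the 10 genes, *Bpgm*, was lower in the Cko by at least 1.5-fold and none higher, against 7.80% of 4255 genes. *Bpgm* was at 13.7 and 5.48 CPM (-1.33, -1.92 to -0.74), from 57 and 46 UMIs. The median hemoglobin share was 0.325% in these WT cells and 0.0907% in the Cko cells, and the part of RNA from erythroid cells in this difference was not tested. Among the glycolysis genes *Gapdh* was at 713 and 1022 CPM (0.52, 0.46 to 0.58), *Eno1* at 269 and 327 CPM (0.28), *Gpi1* at 470.3 and 526 CPM (0.16), *Pkm* at 686 and 699 CPM (0.03, -0.04 to 0.09) and *Pgk1* at 28.2 and 18.9 CPM (-0.57, -0.93 to -0.22). The sum was at 0.17 (0.14 to 0.20), and at 0.06 (0.03 to 0.10) without *Gapdh*, so that *Gapdh* carried most of it. Within the 3 maturity bins the sum gave 0.13, 0.15 and 0.18. The most mature bin held 110 of 640 WT and 499 of 1183 Cko cells.

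In GMP-like cells *Gapdh* was at 1034 CPM in the WT and 1623 CPM in the Cko (0.65, 0.61 to 0.69), while 7 of the other 8 glycolysis genes lay between -0.11 (*Aldoa*) and 0.12 (*Eno1*). *Pgk1* was at 36.1 and 25.9 CPM (-0.48, -0.75 to -0.21). The sum was 0.18 (0.16 to 0.20). *Gapdh* was therefore set apart from the rest of the route in these progenitors.

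In B cell-like cells 1 gene, *Bpgm*, was lower and none higher by 1.5-fold, against 5.30% of 4944 genes. *Bpgm* was at 30.3 and 15.5 CPM (-0.97, -1.37 to -0.59), with a median hemoglobin share of 0.310% of the UMIs in WT and 0.0800% in Cko cells, and again the part of erythroid RNA was not tested. *Gapdh* was at 992 and 1235 CPM (0.32, 0.26 to 0.37) and *Eno1* at 131 and 163 CPM (0.31, 0.17 to 0.45). *Ldha*, at 526 and 524 CPM (-0.01, -0.08 to 0.07), and *Pkm*, at 284 and 271 CPM (-0.07, -0.17 to 0.03), had intervals that include 0. The sum was at 0.14 (0.10 to 0.17), and at 0.013 (-0.029 to 0.055) without *Gapdh*.

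In monocyte-like cells the genes went both ways: *Gpi1* was higher and *Pgk1* lower by at least 1.5-fold, against 14.9% of 4279 genes in either direction. *Gpi1* was at 260.3 and 393 CPM (0.59, 0.45 to 0.74) and *Pgk1* at 38.5 and 19.6 CPM (-0.98, -1.45 to -0.50), from 79 and 74 UMIs. *Tpi1* (-0.48), *Pgam1* (-0.38), *Ldha* (-0.35), *Aldoa* (-0.25) and *Pkm* (-0.16) were lower with intervals below 0, and *Gapdh* was higher (0.28, 0.21 to 0.35). The sum was 0.01 (-0.03 to 0.05). When each library was clustered on its own, 6 of the 10 genes passed 1.5-fold, against 51.2% of 5169 genes, and the sum was -0.18. With at least 10 clusters the sum was 0.14 (0.12 to 0.16), and when clustered without called doublets 0.10 (0.06 to 0.14). Its sign thus rested on how the class was drawn. In the clustering without called doublets the class held 296 WT and 310 Cko cells. A separate unnamed cluster there held 45 WT and 276 Cko cells, and its leading genes included *Wfdc17*, *H2-Aa* and *Cd74*. The part of such cells in the ratios of this class was not tested. Neutrophil markers summed to 15272 CPM in the WT and 21280 CPM in the Cko in this class. WT neutrophil-like cells had more *Gpi1* (470.3 against 260.3 CPM), *Pkm* (686 against 662) and *Ldha* (356 against 340.2) than WT monocyte-like cells. They had less of the other glycolysis genes, *Gapdh* included (713 against 1283 CPM). The part of neutrophil RNA in these ratios was not tested.

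The small classes gave wide intervals. In T/NK-like cells *Gapdh* was at 1385 and 852 CPM (-0.70, -0.98 to -0.42) and *Ldha* at 820 and 417 CPM (-0.98, -1.35 to -0.60), lower in the Cko where the larger classes had *Gapdh* higher. The erythroid markers summed to 97309 CPM in the 21 WT and 1216 CPM in the 63 Cko cells of this class, and the neutrophil markers to 1409 and 35685 CPM. In macrophage-like cells the interval of the sum was -0.06 to 0.69, and in stromal and endothelial-like cells 0.30 to 0.77, from 335 and 279 UMIs.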

How the data were processed

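The authors isolated BMCs of 1 WT and 1 Cko mouse, made 10x Chromium Single Cell 3′ libraries and counted UMIs with Cell Ranger on GRCm38, per the submitters' processing notes (version not given in the sources used here). The deposited files give raw counts of UMIs, whole numbers for each gene in each barcode, with no normalization by the authors. Every listed gene reaches at least 4 UMIs in some cell, so unlisted genes were not taken as 0.

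Cells with at least 200 genes were kept, 6271 WT and 3662 Cko cells with medians of 6977 and 7440 UMIs, and doublets called with Scrublet (scanpy 1.11.5, expected rate 5%) were kept. Both libraries were clustered together in Seurat 5.3.0 (R 4.3.3) on 2000 variable genes, 20 principal components and 20 neighbours, at resolution 0.3, which gave 15 clusters, with mitochondrial and ribosomal shares regressed out and the 10 genes left out. A cluster took the name of a cell type with at least 3 of its markers, held by at least 25% of the cells at 1.5-fold or more over the other cells. That type also had to have the most among the 25 leading genes. Among the 10 leading genes the other types, alone or together, could not have more than it. Sums of UMIs over the cells of a class were scaled per 1000000 UMIs outside hemoglobin genes (CPM). Counts of genes past 1.5-fold used genes with at least 100 UMIs in the 2 groups and 0.5 counts added to each sum. A count of 0 allows up to 3 counts. No test was made, with 1 library per genotype, and all intervals cover counting error only. The intervals of ratios were run on simulated Poisson counts, the model they assume, which checks the computation only. The intervals of levels and of shares were not tested. Levels of different genes were not ranked, as 3′ counts are not scaled by length.

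The named genes were the 10 members, the 5 genes most like *Bpgm* among those with at least 300 UMIs, and 15 cycling genes as a sum. Of a pathway list of 30 genes, the 11 with at least 100 UMIs in the WT end stages are named, where a limit of 8 had been planned. The members were given as a list rather than chosen from measured values. That list, the other lists and the alternatives were nonetheless drawn up with earlier results of these data known. The alternatives were separate clustering, at least 10 clusters, doublets removed, at least 500 genes per cell, CPM over all UMIs, other stage limits, equal weights for stages, a limit of 300 UMIs and centring on the median ratio. Leaving out cluster 10 and leaving out *Gapdh* were added after seeing the data. Figures were drawn with matplotlib 3.10.9. Sums and intervals were computed in Python 3.11.15 with scipy 1.17.1, pandas 2.3.3 and numpy 2.4.6.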

Additional observations from a re-analysis of the deposited data

Results flagged for a closer look

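Among the erythroid-like, neutrophil-like, monocyte-like and B cell-like classes, the Cko/WT log2 ratio of 4 genes had opposite signs in different classes, with counting intervals on either side of 0. The other classes were not part of this comparison, and in T/NK-like cells *Gapdh* (-0.70) and *Eno1* (-0.72) were also below 0. The difference between classes was not tested, as each genotype had 1 library. *Aldoa* was at 0.41 in erythroid-like cells, -0.18 in neutrophil-like, -0.25 in monocyte-like and -0.20 in B cell-like cells. *Pgam1* was at 0.87 in erythroid-like and -0.38 in monocyte-like cells. *Pkm* was at 0.50 in erythroid-like and -0.16 in monocyte-like cells. *Ldha* was at 0.37 in erythroid-like and 0.18 in neutrophil-like cells but at -0.35 in monocyte-like cells.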

How the results depend on the processing

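Of 107 alternative values for 15 results, 59 stayed within the counting interval or within 1.5 times the count, 42 moved outside and 6 changed sign. The cause was not tested except where stated. No paired analysis was possible because each genotype had 1 library, and for the same reason leaving out a replicate was not possible. All ratios here are log2.

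*Bpgm* over the erythroid stages (6.52 in the WT and 6.86 in the Cko) stayed at or above 4.74 in every alternative. It was 4.74 and 5.12 with CPM over all UMIs, whose total includes hemoglobin, 5.01 and 6.06 with at least 500 genes per cell, and 7.61 and 8.18 with quartiles of the hemoglobin percent. The sum of the 9 genes (-2.35 and -2.70) stayed at or below -2.21. It was -4.12 and -4.44 with CPM over all UMIs, -2.57 and -3.06 without cluster 10 and -2.24 and -2.48 without *Gapdh*. It was -2.57 in the WT with each library clustered on its own, -2.21 in the WT with quartiles, and -2.87 in the Cko without called doublets.

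The sum over the neutrophil bins (0.12 and 0.17) was less steady. In the WT it was -0.20 with separate clustering, and the values in the WT and Cko were 0.29 and 0.23 with at least 10 clusters, 0.0062 and 0.084 with 2 bins of the maturation ratio, and 0.038 and 0.11 without *Gapdh*.

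For Cko over WT, the sum in erythroid-like cells (0.45) was 0.62 with separate clustering, 0.39 with CPM over all UMIs, 0.24 with stages weighted equally and 0.39 without *Gapdh*. *Bpgm* in these cells (0.06) was -0.14 with separate clustering, -0.0012 with CPM over all UMIs, -0.56 with stages weighted equally and 0.51 with at least 500 genes. The sum in neutrophil-like cells (0.17) was 0.28 with separate clustering, 0.060 with at least 10 clusters and 0.063 without *Gapdh*. That in monocyte-like cells (0.01) was -0.18 with separate clustering, 0.14 with at least 10 clusters, 0.10 without called doublets and -0.13 without *Gapdh*. That in B cell-like cells (0.14) was 0.18 with separate clustering, 0.17 without called doublets and 0.013 without *Gapdh*.

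The count of genes past 1.5-fold was 6 in erythroid-like (from 2) and 6 in monocyte-like cells (from 2) with separate clustering. With at least 10 clusters it was 0 in monocyte-like and 2 in neutrophil-like cells (from 1), and without called doublets 1 in monocyte-like cells. With at least 300 UMIs it was 0 in B cell-like (from 1), 1 in monocyte-like and 0 in neutrophil-like cells, by construction, since genes with fewer UMIs are left out.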
